A study of Mus musculus with 2 samples.

Results

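The pentose phosphate pathway enzymes measured here are the products of 7 mouse genes, G6pdx, Pgls, Pgd, Rpe, Rpia, Tkt and Taldo1. Members were taken by name, and every non-control probe whose RefSeq transcript accession belongs to a listed gene was used, without regard to its reading. This gave 11 probes out of 56603 on the array, and 7 genes out of the 23786 that could be named. All 7 genes had at least 1 probe, and all 11 probes were well above background on both arrays by the scanner program's own call.

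RNA came from bone marrow-derived dendritic cells, antigen-presenting cells grown from femoral marrow of C57BL/6J mice with 10 ng/ml of the cytokine GM-CSF and collected on day 6. The first group is labelled EGR1-deficient and the other WT, the cells of both groups were grown alike, and both samples are labelled male. EGR1 is a DNA-binding factor whose gene is switched on quickly by many stimuli. The labels give neither the allele nor the part of the gene removed, and give no age or number of mice. Each group is 1 sample on 1 one-colour array, so no difference has a replicate check, no p-value is given, and differences are stated on the log2 scale as EGR1-deficient minus WT.

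The pathway branches from glycolysis at glucose 6-phosphate. Its oxidative arm makes NADPH, the reducing power for lipid synthesis, for glutathione and thioredoxin recycling and for the phagocyte oxidase, and ends in a pentose phosphate. Its non-oxidative arm rearranges sugars between pentoses and glycolytic intermediates, supplying ribose for nucleotides or returning carbon to glycolysis. In dendritic cells and macrophages the pathway is known for its link to activation and to the oxidative burst.

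Both arrays lay on the same slide and carry the same scan time, and the share of 59305 non-control spots called well above background was 59.8% on the array labelled EGR1-deficient against 55.2% for WT. Egr1 itself read 1212 in the sample labelled EGR1-deficient and 379.7 in WT, so it was 1.61 log2 units higher in the sample labelled as lacking it. It has 1 probe, and no source used here places that probe relative to a deleted part, so the reading goes against the label without settling it. No probe of the Y-linked genes Ddx3y, Kdm5d and Uty passed the background call on either array, and Xist read 4559 and 3425, which goes against the male label of both samples. Of the 2 probes of Eif2s3y, also Y-linked, 1 was well above background on both arrays, at 27.1 and 25.6. Directions below therefore rest on the labels as given. All 10 dendritic cell markers listed, including Itgax, Zbtb46 and the MHC class II genes H2-Ab1 and Cd74, were well above background on both arrays. All 10 macrophage, 5 monocyte and 8 neutrophil markers listed were too, so passing this call does not set the labelled cell type apart. Whether the cultures were mixed was not tested.

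Across the pathway, 6 of the 7 genes read lower on the array labelled EGR1-deficient, by amounts that were small except in Rpe; the count was 5 after quantile or loess normalization and 7 when arrays were scaled to their median spot. With each gene represented by its brightest probe, the median difference was −0.22, against −0.05 over all 13735 genes well above background on both arrays, of which 57.4% lay below 0. Only Rpe was 2-fold or more apart, 4.18-fold lower, where 1.71% of all genes were 2-fold or more apart in either direction. At 1.5-fold or more the count of members was again 1, where 7.70% of all genes passed that fold. Of the 13735 genes, 97 were 2-fold or more higher and 138 lower. The split was 77 against 174 after quantile normalization, 73 against 184 after loess and 68 against 191 when scaled to the median spot. In the authors' series table it was 103 against 68, over 12772 genes. Without Rpe the median of the other members stayed at −0.22, with a range from −0.42 to 0.08.

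**Figure D1:**
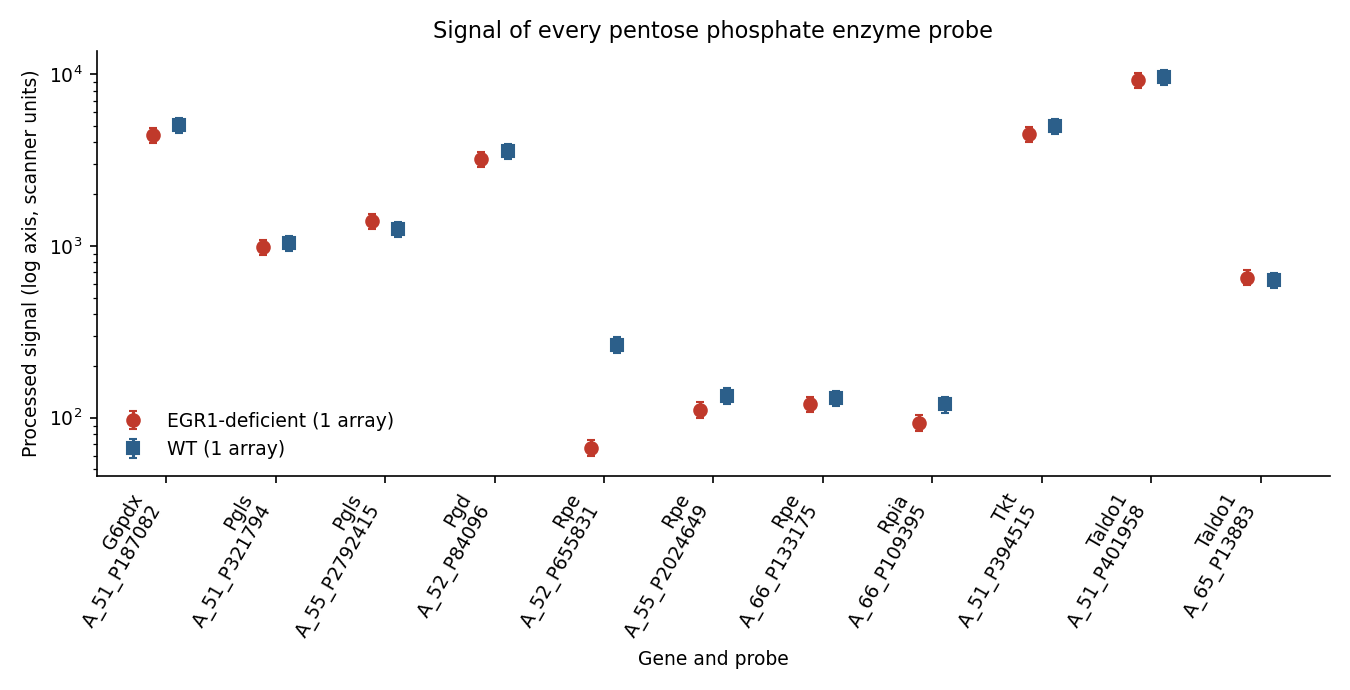
Processed signal in scanner units, on a log axis, of each of the 11 probes on the array labelled EGR1-deficient (circles) and the WT array (squares), 1 array each; bars are the scanner program's own error of the signal. The pairs overlap or nearly touch for every probe except A_52_P655831 of Rpe, at 66.7 and 266, and heights of different probes are not comparable.

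G6pdx, on chromosome X, encodes glucose-6-phosphate dehydrogenase, which catalyses the committed step of the oxidative arm and makes the first NADPH. Its probe A_51_P187082 (transcript NM_008062) read 4414 in the sample labelled EGR1-deficient and 5028 in WT. The array labelled EGR1-deficient was the lower, at 83.8% of WT after scaling, a difference of −0.25 log2 units. The scanner program's error of each member signal lay between 10.0% and 10.9%, which gives an error of 0.20 for this difference. That error covers the reading of a spot only, not the spread between cultures. Of all genes, 22.3% had a lower difference than G6pdx.

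Pgls encodes the lactonase that opens the product of glucose-6-phosphate dehydrogenase. Its probe A_55_P2792415 read 1395 against 1257, and its probe A_51_P321794 read 980.0 against 1042. A_55_P2792415 was the higher in the sample labelled EGR1-deficient, by 0.08, and A_51_P321794 the lower, at −0.16, so the pair gave opposite signs, and each lay within its error of 0.20. Pgls was the only member whose brightest probe was not lower. The sign of that probe turned to −0.03 when arrays were scaled to their median spot.

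Pgd encodes 6-phosphogluconate dehydrogenase, which makes the other NADPH of the oxidative arm and releases ribulose 5-phosphate. Its probe A_52_P84096 read 3207 in the sample labelled EGR1-deficient and 3561.5 in WT. The difference was −0.22 with an error of 0.20, close to that of G6pdx. Over the 3 genes of the oxidative arm the median was −0.22, and none was 1.5-fold apart.

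In the non-oxidative arm, Rpia and Rpe act on the same substrate, ribulose 5-phosphate. Rpia encodes the isomerase that turns it into ribose 5-phosphate, the sugar of nucleotides. Its probe A_66_P109395 read 93.3 against 119, a difference of −0.42 with an error of 0.21, equal to 74.5% of WT. Among the members only Rpe had a lower difference, and 8.92% of all genes lay lower than Rpia. The value shrank to −0.22 after normexp background correction.

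Rpe encodes the epimerase that turns ribulose 5-phosphate into xylulose 5-phosphate, the donor sugar of transketolase. It was measured by 3 probes, and they differed. Probe A_52_P655831, assigned to transcript NM_025683, read 66.7 in the sample labelled EGR1-deficient and 266 in WT, a difference of −2.06 with an error of 0.21. Probe A_55_P2024649, assigned to NM_001310643, read 111 against 134, a difference of −0.34 with an error of 0.21. Probe A_66_P133175, assigned to the same NM_001310643, read 119 against 129.7, a difference of −0.19 that lay within its error of 0.21. All 3 were lower on the array labelled EGR1-deficient, but the 2-fold line was passed by A_52_P655831 alone, and the mean over the 3 probes was −0.86.

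The reading of A_52_P655831 was not at the detection limit. Its signal was 5.01 times the lowest signal that passed the background call on the array labelled EGR1-deficient, and 16.3 times that of WT. Before background subtraction its median pixel was 126 against 314, over local backgrounds of 38 and 41, and neither spot carried an outlier mark. Only 21 of 13735 genes and 46 of 29253 probes had a lower difference. It represents Rpe here because its mean signal over the arrays was the highest of the 3, which its WT reading sets. With the probe of second highest mean signal instead, an alternative chosen after seeing the data, Rpe stood at −0.19 and no member was 2-fold apart.

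Disagreement of this size between probes of a gene was uncommon. Of 1023 genes with 3 or more probes above background on both arrays, 13 (1.27%) had a range between probes at least as wide as the 1.88 of Rpe, and the median range was 0.41. Among the 235 genes 2-fold or more apart, 30 had a further probe above background on both arrays, and in 27 of these, Rpe included, no other probe was 2-fold apart in the same direction. No source used here gives the probe sequences or their places in the transcripts, so whether A_52_P655831 reads other Rpe transcripts than the other two was not tested.

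**Figure D2:**
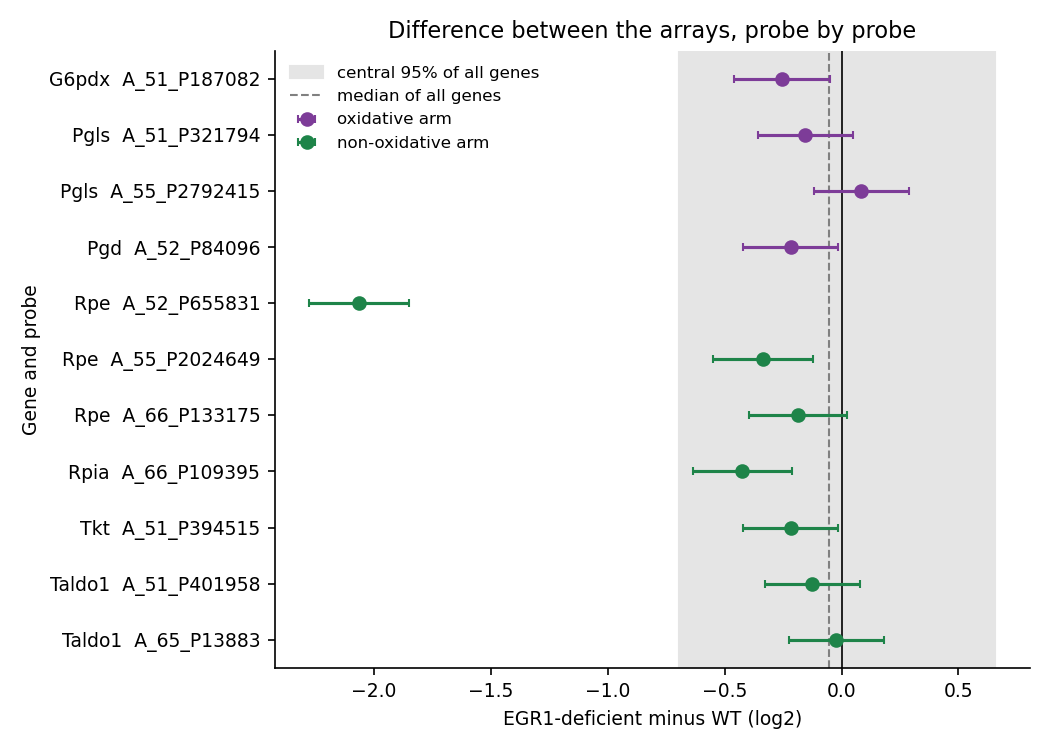
Difference between the arrays (EGR1-deficient minus WT, log2) for each of the 11 probes, with the scanner error of the difference as bars and colours for the arms of the pathway; the shaded band holds the central 95% of all genes, from −0.70 to 0.66, and the dashed line is their median of −0.05. The probe A_52_P655831 of Rpe, at −2.06, lies outside the band and the other 10 probes lie inside it.

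Tkt encodes transketolase, the thiamine-dependent enzyme that carries carbon between the pentose phosphates and glycolysis. Its probe A_51_P394515 read 4463 in the sample labelled EGR1-deficient and 4958 in WT, a difference of −0.22 with an error of 0.20. Taldo1 encodes transaldolase, which completes the return to glycolytic sugars. Its probe A_51_P401958 read 9207 against 9586, a difference of −0.12, and its probe A_65_P13883 read 654 against 634, a difference of −0.02. Both Taldo1 differences were within the error of 0.20, and both turned positive after quantile normalization, to 0.03 and 0.04, and after loess, to 0.01 and 0.05.

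Probe by probe, 10 of the 11 differences were below 0, where 52.0% of all 29253 probes above background on both arrays were. The count of members was 8 after quantile or loess normalization and 11 when arrays were scaled to their median spot. 6 of the 11 were larger than their scanner error, and 1, A_52_P655831 of Rpe, was larger than 2 such errors. That error was nearly the same for every member probe, from 0.20 to 0.21. The shares of all probes past these lines were not computed, so the counts cannot be compared with the array as a whole. Further measures of technical spread bear on these sizes. Probes printed repeatedly on the array had a median SD of the difference of 0.07 between their spots, and of 0.12 over the 18 such probes with signals of 50 to 500, the range of the Rpe and Rpia probes. None of the 2604 repeated spots above background lay 1 log2 unit or more from the mean of its probe. Spots with an outlier mark were left out before this count, so it cannot show how often a spot strays that far. Only 177 of these spots had signals of 50 to 500. Between the probes of genes that have 2, the median SD was 0.17.

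Brighter genes as a whole read slightly lower on the array labelled EGR1-deficient, and most of the pathway is bright. With genes in 4 equal bins by mean signal, the brightest bin holds G6pdx, Pgls, Pgd, Tkt and Taldo1. The median difference in it was −0.10 and 69.7% of its genes lay below 0. The spread there, as a scaled median absolute deviation, was 0.19. The 5 members lay from −0.25 to 0.08 around a median of −0.10, no further from it than 0.19, the spread of their bin. Whether brightness has a part in the differences of the members was not tested. Rpe and Rpia fall in the second dimmest bin, where the median was −0.02, the spread 0.31 and 1.81% of genes were 2-fold or more apart.

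**Figure D3:**
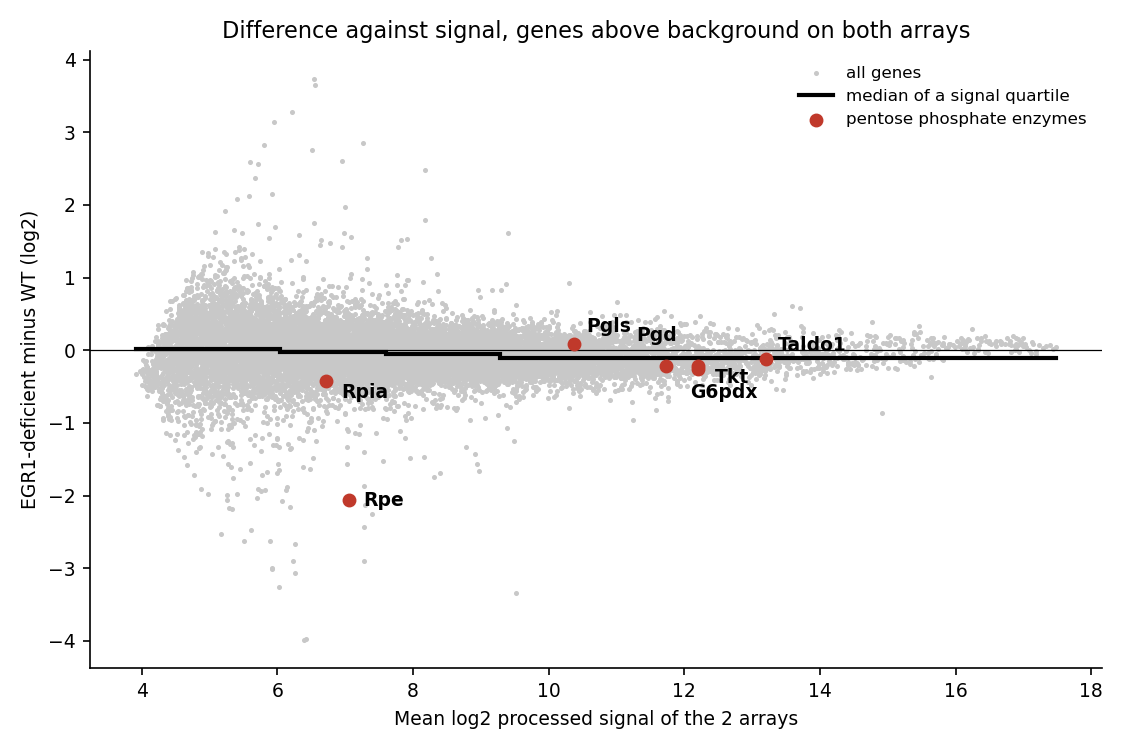
Difference between the arrays (EGR1-deficient minus WT, log2) against mean log2 processed signal for 13735 genes above background on both arrays (grey), with the median of each of 4 bins by signal as black lines and the 7 pathway enzymes in red. 5 enzymes sit near the line of the brightest bin at −0.10, Rpia lies at −0.42 and Rpe at −2.06.

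The small differences depended on the scaling. With the 75th percentile of each array the members' median lay 0.17 below that of all genes (difference −0.17), and it lay −0.05 from it after quantile normalization and −0.07 after loess, which both act on differences that vary with brightness. G6pdx stood at −0.10 after quantile normalization and −0.13 after loess, Pgd at −0.08 and −0.10, and Tkt at −0.06 and −0.10. Scaling to the median spot moved the median of all genes to −0.17 and the authors' series table moved it to 0.06. In that table, which lists all 11 probes, G6pdx stood at −0.14, Pgd at −0.10, Tkt at −0.10 and Rpia at −0.31, and 9 of 11 probes were below 0. The alternatives on the filter gave every member its main value, as did those on the choice of probe for the genes with 1 probe, so they say nothing of stability. Of the alternatives that gave another value, G6pdx, Pgd, Rpia and Tkt were below 0 under 6 of 6 and Rpe under 8 of 8. Taldo1 was below 0 under 6 of 8 and Pgls under 3 of 8. Scaling to the median spot and use of the authors' series table each shift all genes by a constant. These are therefore not separate checks, and every alternative reuses the same arrays.

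**Figure D4:**
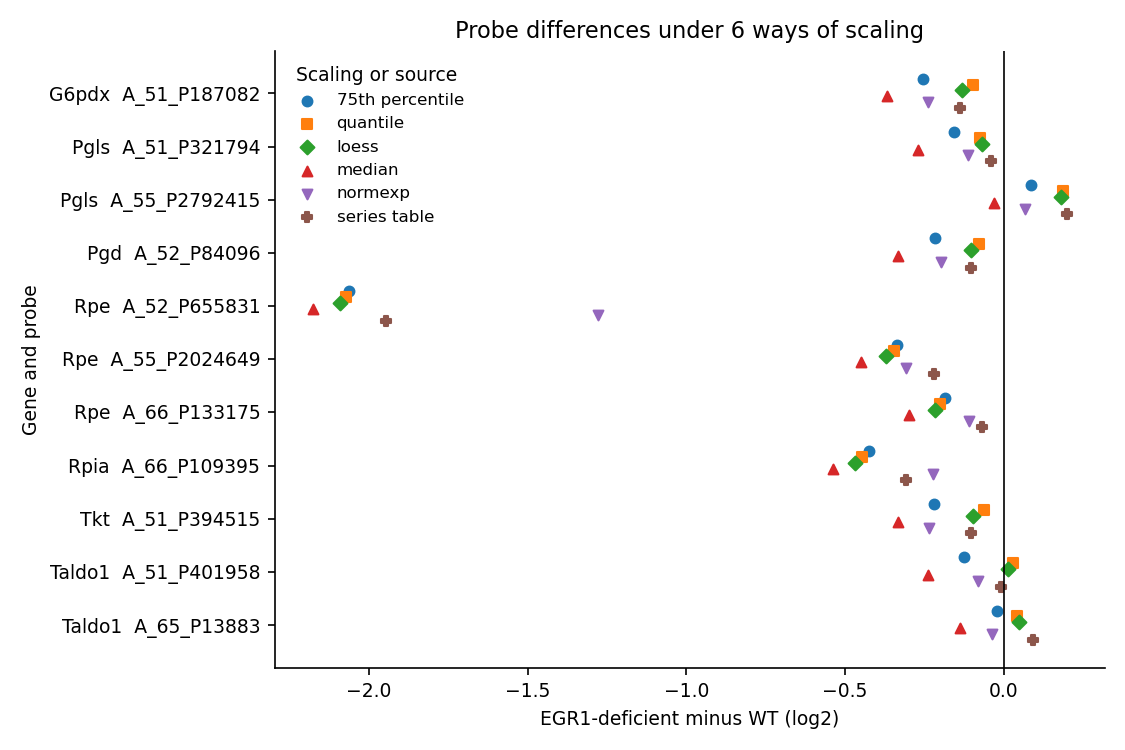
Difference between the arrays (EGR1-deficient minus WT, log2) for each of the 11 probes under the 75th percentile scale, quantile, loess and median scaling, normexp background correction, and the authors' series table. Symbols of the bright probes of G6pdx, Pgd and Tkt stay below 0 and shift together, both Taldo1 probes cross 0, and A_52_P655831 of Rpe stays lowest, between −2.18 and −1.28.

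The promoters of the enzymes were searched for the letters that EGR proteins bind, since EGR1 is the factor named in the comparison, and for the element bound by NRF2, a known activator of this pathway. The windows are the 250 bases before each transcript start in RefSeq, build GRCm38.p6, and both strands were read. The full EGR motif, GCGNGGGCG, was in none of the 8 windows of the 7 genes and in 4.70% of all 32851 windows. Its core, GNGGGCG, was in a window of 6 of the 7 genes, all but Taldo1. By windows it was in 6 of 8, and in 28.3% of all windows. The antioxidant response element, TGACNNNGC, was in the window of G6pdx only and in 10.2% of all windows. The GC box, GGGCGG, which overlaps the EGR core by letters, was in a window of all 7 genes. By windows it was in 7 of 8, and in 32.7% of all windows. The E-box, CACGTG, was in none of the 8 and in 6.02% of all windows. The G and C content of the members' windows ran from 52.0% to 64.4% against a median of 52.4%. The lowest, a window of Pgd, lay just below that median. A match is a run of letters and shows no binding.

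Windows are printed for Rpe, whose probes disagree, for G6pdx, the entry enzyme and the member with an antioxidant element, and for Tkt, whose difference was close to that of G6pdx. Capitals mark the EGR core on either strand and, in G6pdx alone, also the antioxidant element, GCTCAGTCA on the reverse strand. The Rpe window is chr1:66700581-66700830 on the plus strand, the G6pdx window chrX:74428881-74429130 on the minus strand and the Tkt window chr14:30548881-30549130 on the plus strand, each written 5′ to 3′ along its gene.
Rpe: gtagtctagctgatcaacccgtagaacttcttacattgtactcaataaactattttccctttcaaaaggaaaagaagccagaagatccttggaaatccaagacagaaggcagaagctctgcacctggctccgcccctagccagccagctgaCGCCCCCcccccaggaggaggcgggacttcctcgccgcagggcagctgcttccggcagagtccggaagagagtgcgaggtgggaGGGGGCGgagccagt
G6pdx: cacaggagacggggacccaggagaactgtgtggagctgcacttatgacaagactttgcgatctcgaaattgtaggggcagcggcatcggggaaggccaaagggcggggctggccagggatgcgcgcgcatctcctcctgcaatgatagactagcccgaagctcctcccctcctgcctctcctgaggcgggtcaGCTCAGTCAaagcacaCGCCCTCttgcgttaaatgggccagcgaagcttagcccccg
Tkt: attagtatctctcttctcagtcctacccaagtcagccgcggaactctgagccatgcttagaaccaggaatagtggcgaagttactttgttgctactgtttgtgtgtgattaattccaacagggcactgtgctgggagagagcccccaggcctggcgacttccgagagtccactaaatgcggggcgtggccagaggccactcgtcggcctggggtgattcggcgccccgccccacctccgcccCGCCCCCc
In Rpe the core begins 99 bases before the start on the reverse strand and 15 bases before it on the forward strand, in G6pdx 41 bases before it and in Tkt 8 bases before it, both on the reverse strand.

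Relatives of the enzymes gave differences of both signs. G6pd2, an intronless copy of G6pdx, read 147 against 129, a difference of 0.12, though without probe sequences it cannot be told how far its probe also binds RNA of G6pdx. H6pd, the glucose 6-phosphate dehydrogenase of the endoplasmic reticulum, read 413 against 457, a difference of −0.21. Shpk, the sedoheptulose kinase that feeds the non-oxidative arm and is known for its part in macrophage polarisation, read 79.1 against 95.3, a difference of −0.34. The transketolase-like genes Tktl1 and Tktl2 stayed below the background call on both arrays.

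Around the pathway, 53 genes in 6 roles were read, of which 49 were well above background on both arrays. 34 of these were below 0, where 57.4% of all genes were, and the median of the 49 was −0.17. Of the 49, 3 were 1.5-fold or more lower and none was 1.5-fold or more higher. Of all genes, 4.18% were 1.5-fold or more lower and 3.52% higher. All 7 genes that supply or compete for glucose 6-phosphate were below 0, with a median of −0.21, and 6 of 7 were so after quantile, loess or normexp processing. They ran from −0.42 for the phosphoglucomutase Pgm2 to −0.12 for the isomerase Gpi1, and the hexokinase Hk2 stood at −0.30. Among the enzymes beside the pathway the lowest was Tigar, a phosphatase that steers glucose 6-phosphate into the pathway, at 175 against 259, a difference of −0.63. The aldolase Dera followed at −0.56 and the ribokinase Rbks at −0.38, and Xylb passed the background call in the sample labelled EGR1-deficient only.

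Genes that use ribose 5-phosphate went both ways. Of 5, 3 were above 0, where 57.4% of all genes were below 0. The median was 0.07, or −0.05 when scaled to the median spot. The ribose phosphate pyrophosphokinase Prps2 read 58.3 against 84.2, a difference of −0.60 with another probe at 0.27, while Prps1 stood at 0.25. Its associated protein Prpsap1 stood at 0.33, with another probe at −0.30. Other makers of NADPH were above 0 in 7 of 11, with a median of 0.07, which also turned to −0.05 on that scale. The folate enzyme Aldh1l1 was the highest at 0.43 and the kinase Nadk the lowest at −0.17, with another probe at 0.12.

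Users of NADPH were below 0 in 10 of 13, where 57.4% of all genes were, with a median of −0.12. The count was 8 of 13 after quantile or loess normalization. The fatty acid synthase Fasn was the lowest, at 262 against 333, a difference of −0.41. The glutathione reductase Gsr stood at −0.22 and the thioredoxin reductase Txnrd1 at −0.22, with another probe at 0.04. Of the phagocyte oxidase, Ncf4 stood at −0.38, Cyba at −0.20 (another probe −0.06) and Cybb at −0.09 (another probe −0.28). Ncf1 stood at 0.06, with another probe at −0.12. The inducible nitric oxide synthase Nos2 was the highest of the users, at 0.14. Of 7 regulators, 6 were below 0, with a median of −0.21. The kinase Mtor read 40.2 against 59.6, a difference of −0.63, and the repressor Bach1 stood at 0.29. Nfe2l2, which encodes NRF2, stood at −0.21 with another probe at 0.32.

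**Figure D5:**
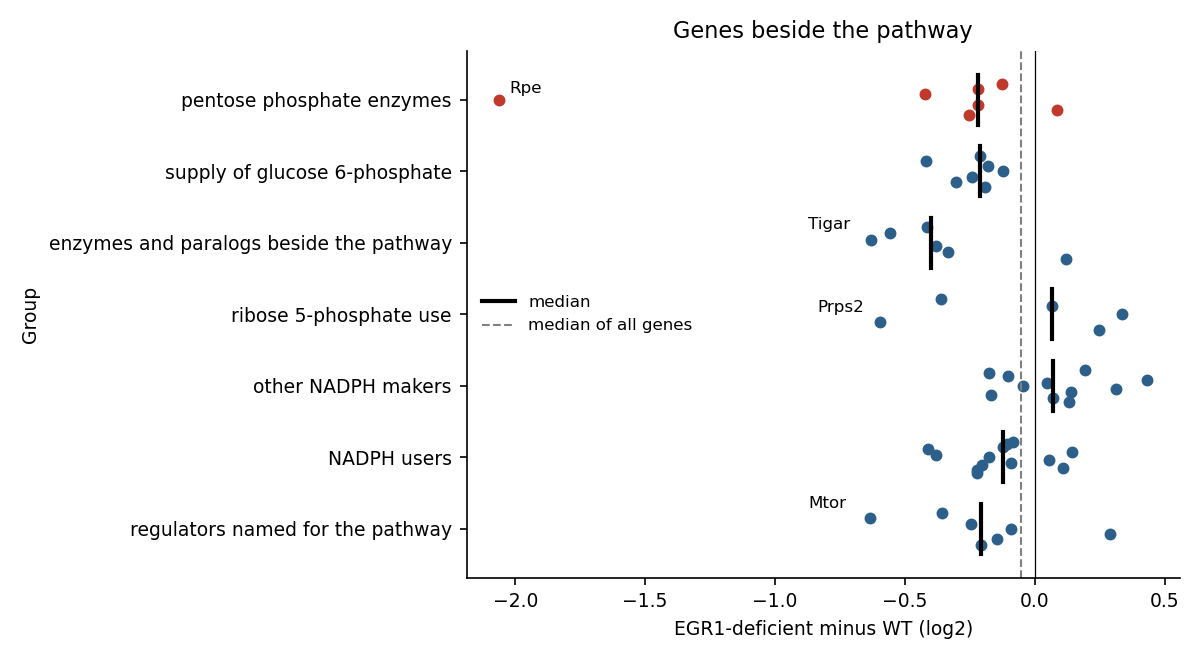
Difference between the arrays (EGR1-deficient minus WT, log2) for the 7 enzymes (red) and for 49 genes beside the pathway in 6 roles (blue), 1 point a gene, with the median of each group as a black bar and the median of all genes dashed at −0.05. Names mark genes 1.5-fold or more apart, and the medians of ribose 5-phosphate use and of other NADPH makers, both 0.07, lie above 0.

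Markers of other cells lay on both sides of 0, where 57.4% of all genes lay below it. All 10 macrophage markers were below 0 (9 of 10 in the authors' series table), with a median of −0.38, and C1qc was the lowest at −0.64. Their summed signal was 74557 against 92654, of which Apoe alone gave 45773 and 56374. Such sums are of unscaled signals over probes whose heights are not comparable, so a few bright probes can set them. All 6 markers of eosinophils, basophils and mast cells were below 0 as well, with a summed signal of 3167 against 4549. Dendritic cell markers had a median of −0.02 (0.12 after loess) and a summed signal of 46463 against 46394, and markers were below 0 in 4 of 8 for neutrophils and 4 of 5 for monocytes. T and NK cell markers had a summed signal of 431 against 211, in which signals that failed the background call were counted too. The NK receptor gene Klrd1 read 226 in the sample labelled EGR1-deficient and 70.3 in WT (difference 1.62). Cd3e differed by 0.18 (other probe −0.08). Cd3g passed the background call only in the sample labelled EGR1-deficient and Ncr1 on neither array. Of the B cell markers, Ebf1 stood at −1.15 (15.7 against 33.3) and Cd79a at −0.58 (25.1 against 35.8). These signals are faint, as the lowest to pass the background call were 13.3 (EGR1-deficient) and 16.3 (WT). The B cell median shrank from −0.87 to −0.23 after normexp. Among erythroid markers Hba-a1 read 136 and 141 and Klf1 21.1 and 24.3, both above background on both arrays, and Alas2 was on neither. The part of these cells in the differences of the pathway was not tested, and in RNA of whole cultures fewer cells of a type and less RNA per cell cannot be told apart.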

How the data were processed

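The authors deposited 1 Agilent Feature Extraction file per array, whose processed signal is an intensity on a linear scale after background subtraction and detrending. The version is 12.1.0.3 per the file headers and 11.5.1.1 per the submitters' processing notes. The authors' deposited series table holds these intensities multiplied by 6.18 (EGR1-deficient) and 5.97 (WT), uncentred, with medians of 1205 and 1114, for reasons not given in the sources used here. The scanner program's calls are deposited as flags: no spot was saturated, and 77 and 79 outlier spots were left out.

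Log2 signals were scaled by the 75th percentile of each array's non-control spots (191.6 and 183.0) and averaged over repeated spots. Probes were named by accession through a RefSeq table of GRCm38.p6 (34565 of 56603 matched), and gene coordinates were not used because the arrays name build mm9. The brightest probe on average, among those well above background on both arrays, stood for a gene. Samples were grouped by labelled genotype. With 1 array per group no test was possible, array number limits the precision, and folds are sizes only. The alternatives were 8 planned and 2 added after seeing the data, run with limma 3.58.1. Normexp (offset 50) used the median pixel because the files used hold no mean pixel column. Named genes were all members and, of the listed neighbours, the extremes of each role, those 1.5-fold apart and relatives of members; the other neighbours named are Hk2, Dera, Rbks, Xylb, Prps1, Gsr, Txnrd1, Ncf4, Cyba, Cybb, Ncf1 and Nfe2l2, chosen after their values were seen. Some genes of the lists are not reported here and were left out of their counts. The counting was tested on simulated data. Members and lists were chosen with earlier results of these data known.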

Additional observations from a re-analysis of the deposited data

How the results depend on the processing

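With 1 array per group the replicate spread is unknown, and a value was taken as moved when it shifted by more than 0.17 log2 units, the median SD between the probes of genes that have 2. Of 100 recomputed values, 35 equalled the main value and 58 of the other 65 moved by less. Normexp background correction, run with an offset of 50, moved Rpe to −1.28 and Rpia to −0.22. The Rpe probe A_52_P655831 had processed signals of 66.7 (EGR1-deficient) and 266 (WT), and the Rpia probe 93.3 and 119. An offset of 50 is not small beside such signals, and its part in these moves was not tested. With the mean over the probes of a gene, Rpe stood at −0.86 and 0 members were 2-fold apart. With the probe of second highest mean signal, added after seeing the data, Rpe stood at −0.19, Pgls at −0.16 and 0 members were 2-fold apart. The members' median ran from −0.33 to −0.08 and that of the neighbouring genes from −0.28 to −0.06. Both medians were below 0 under the 7 and 8 alternatives that altered them. Some of these alternatives shift all genes by a constant, so they are not separate checks. Genes 2-fold apart numbered 97 higher and 138 lower of 13735, and 18 and 32 of 13735 after normexp. They numbered 26 and 49 of 11027 with the stricter filter, and 1280 and 971 of 23786 without a filter. No paired analysis was possible because each group has 1 sample. The faint probes of Rpe and Rpia, 5.01 to 16.3 times the lowest signal above background, limit what their differences can show.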
